A study of Mus musculus with 4 samples.

Results

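This account follows the surface antibody tags of a CITE-seq experiment on mouse hearts and sets each tag against the gene for its antigen. CITE-seq stains living cells with antibodies that each carry a short DNA barcode, so that the same droplet reports the cell's transcripts and the number of antibody molecules bound to its surface. All 198 rows of the deposited feature lists that are typed as antibody capture were taken, and the 9 rows whose names mark them as isotype controls were set apart as background. Of the surface tags that remained, 166 name the product of 1 gene, 20 name a complex, a splice form or a set of related proteins, and 3 name an antigen that C57BL6J mice lack. The files also hold 32285 genes, and the 166 tags point to 164 different ones, because CD45 and F4_80 each have more than 1 entry.

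There were 2 libraries, each made from the pooled hearts of 4 C57BL6J mice. The mice of the isotype library had received a Rat IgG antibody, and those of the anti-CD40 library an antibody that activates CD40. The labels give no age, sex, dose or time for these mice. Hearts were flushed with buffer, freed of the atria and digested for 20 min, and the sample titles describe a sort for living CD45+ cells, while the series text names a DRAQ5 gate without CD45. The files do not settle which gate applied. With 1 library in each group there is no replicate, no difference between the libraries was tested, and an effect of the antibody cannot be told apart from other differences of preparation.

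An antibody tag reports protein on the cell surface, whereas a gene count reports messenger RNA, and the amounts can differ because proteins outlive transcripts, are stored inside the cell, are shed, or are carried over from other cells. Antibodies also differ in affinity and can bind Fc receptors, so the count of one tag cannot be read as a level against another tag, and an isotype control, an antibody of the same class with no known target, gives the background of unspecific binding. CD40 is a receptor of the tumour necrosis factor receptor family on B cells, dendritic cells and macrophages. Its ligand on helper T cells activates these cells, which then display more adhesion and costimulatory molecules. In the heart, resident macrophages are known for the scavenger receptors CD163 and folate receptor beta, while CD274 (PD-L1), Ly-6A/E (Sca-1), CD317 (BST2) and CD54 (ICAM-1) are surface proteins known to be inducible by interferons.

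The promoters of the genes behind those 4 interferon-inducible proteins were looked up because their tags were higher in the anti-CD40 library in every cell class compared, as described below. RefSeq's promoter table (GRCm38.p6) held 3 of the 4 genes, and Ly6a was not among them. The 250 bases before the transcription start are printed 5′ to 3′ on the strand of the gene, with matches in capitals to GAAANNGAA, the core of an interferon response element, searched on both strands. The Cd274 window lies at chr19:29367188-29367437 on the forward strand, and that of Bst2 at chr8:71537473-71537722 on the reverse strand.
Cd274 promoter: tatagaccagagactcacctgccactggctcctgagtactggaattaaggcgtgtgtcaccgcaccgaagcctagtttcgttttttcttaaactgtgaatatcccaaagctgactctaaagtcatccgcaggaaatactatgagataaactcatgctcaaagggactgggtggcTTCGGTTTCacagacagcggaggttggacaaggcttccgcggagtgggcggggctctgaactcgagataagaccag
Bst2 promoter: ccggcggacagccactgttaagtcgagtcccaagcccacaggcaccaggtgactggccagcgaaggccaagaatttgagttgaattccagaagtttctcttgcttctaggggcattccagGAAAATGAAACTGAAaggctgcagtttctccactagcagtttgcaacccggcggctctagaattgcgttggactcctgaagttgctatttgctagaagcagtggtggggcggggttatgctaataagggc
The Bst2 window holds 2 overlapping matches, 130 and 124 bases before the start, so the capitals form 1 run. The Cd274 window holds 1 match on the opposite strand, 76 bases before the start. The Icam1 window holds none and is not printed. Among 32851 promoters of this length, 2342 (7.13%) hold GAAANNGAA. With a further A required after these letters, as in the full element, 978 (2.98%) hold it, and of the 3 windows only that of Bst2 does. A match is a run of letters and not evidence of binding.

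The isotype library held 4908 barcodes and 18695756 tag UMIs (molecules counted by their unique barcode), and the anti-CD40 library 7087 barcodes and 28053242 tag UMIs. A minimum of 200 genes and a limit of 10% mitochondrial UMIs left 2558 (52.1%) and 4278 (60.4%) cells. The kept cells had a median of 2443 and 2935 tag UMIs and of 5446 and 8284.5 gene UMIs. The 9 control tags together made up 0.0699% and 0.111% of all tag UMIs. The libraries shared 13 barcode sequences. Each kept cell was placed in a class from its RNA alone, when it passed the marker genes of exactly 1 cell type, and 1720 isotype and 2921 anti-CD40 cells did so. Another 605 (23.7%) and 1094 (25.6%) passed more than 1 list and were set aside as mixed, which is how doublets were handled. The classes are macrophage-like, classical monocyte-like, nonclassical monocyte-like, neutrophil-like, B cell-like, T cell-like, NK cell-like, conventional dendritic cell-like, endothelial-like and fibroblast-like, and the suffix is left off below. A class was used in a library with at least 30 cells, which held for 10 classes in the isotype library and for 8 in the anti-CD40 library, where only 13 B cells and 28 conventional dendritic cells were found. Macrophages were the largest class, with 775 isotype and 2136 anti-CD40 cells. The endothelial class had 41 and 58 cells and the fibroblast class 37 and 37, although such cells are not known to carry CD45.

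Most tags had mean counts above the isotype controls, though fewer passed by medians, as given at the end. A tag counted as above background in a class when its mean UMIs per cell exceeded the highest of the 9 control tags in the same class and library. In macrophages the highest control was Rat IgG1-lambda, at 1.18 and 1.30 UMIs per cell. By that rule 131 tags (69.3% of all surface tags) were above the controls in isotype macrophages, and 122 (64.6%) in anti-CD40 macrophages. In 1 or more classes 179 tags passed in the isotype library and 172 in the anti-CD40 library, and 104 and 101 passed in every class used. The tags that passed in no class numbered 10 and 17. Those failing in both libraries included CD204, a scavenger receptor of macrophages, CD138, a proteoglycan of plasma cells, TIGIT, an inhibitory receptor of lymphocytes, and the receptor for IL-21. IgD, CD22 and CD23, all B cell proteins, failed only in the anti-CD40 library, which has no B cell class.

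The 3 tags for antigens that this strain lacks gave a further background. CD45.1, the allele of CD45 carried by other strains, averaged 0.84 UMIs per isotype macrophage and 0.69 per anti-CD40 macrophage. CD90.1, the other allele of Thy-1, averaged 0.78 and 0.56. Both lay below the highest control in macrophages, but in endothelial cells CD45.1 averaged 5.59 and 5.07 and CD90.1 5.66 and 4.83, above the highest control at 2.68 and 2.69. The tag for H-2Kb loaded with the ovalbumin peptide SIINFEKL averaged 1.89 and 2.18 in macrophages and 22.6 and 46.0 in endothelial cells, which is 8.44-fold and 17.1-fold the highest control there. This tag exceeded the highest control in every class used of both libraries, so passing that rule does not by itself show binding to the named antigen. Endothelial cells also carried more tag UMIs of all kinds, with a median of 6941 and 11382 per cell, so a low level of any tag in that class has a higher background than the 9 controls show.

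The lineage tags marked the classes that RNA had defined. Of 47 tags listed as marking 1 of the 10 isotype classes, 34 were highest in that class, and of 34 tags that could be set against the 8 anti-CD40 classes, 21 were. The immunoglobulin IgD, an antigen receptor of mature B cells, averaged 190 UMIs per isotype B cell and at most 36.8 in any other class. CD79b, a signalling chain of the B cell receptor, averaged 63.3, and CD45R, the B cell splice form of CD45, 25.4. CD20, CD22, CD23, IgM and CD21/CD35 were also highest in B cells, though CD21/CD35, the complement receptors, only at 2.44 against 1.98 in endothelial cells.

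T cells were picked out by CD90.2, the Thy-1 allele of this strain, at 323 and 209 UMIs per cell, and by CD5, a regulator of the T cell receptor, at 105 and 66.0. The coreceptors CD4 (27.1 and 4.55), CD8a (23.7 and 36.3) and CD8b (59.5 and 127) were also highest in T cells in both libraries. The tag for CD3, the signalling part of the T cell receptor, was weak at 7.78 and 2.81, and in the anti-CD40 library endothelial cells exceeded it at 4.78. NK cells led in CD49b, an integrin chain that pairs to bind collagen, at 110 and 52.3, in CD94, which pairs with NKG2 receptors, at 36.6 and 34.0, and in the activating receptor Ly49D at 47.0 and 27.3. NK-1.1, the usual marker of these cells in this strain, averaged only 5.20 and 4.20.

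Among myeloid cells, the Gr-1 tag, whose antibody binds Ly-6G and Ly-6C, averaged 706 and 439 UMIs per neutrophil against at most 15.7 in any other class. Ly-6G alone averaged 24.1 and 11.5 in neutrophils and under 1 elsewhere. Macrophages led in folate receptor beta (360 and 206), CD163, the haemoglobin scavenger receptor (254 and 62.0), and Tim-4, a receptor for dying cells that marks long-lived resident macrophages (28.2 and 36.1). Conventional dendritic cells, present in sufficient number only in the isotype library, led in the integrin CD103 (115) and the chemokine receptor XCR1 (80.8), which mark cross-presenting dendritic cells. The gene Itgae for CD103 and the gene Xcr1 were not used to define the class.

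Endothelial cells led in CD31, an adhesion molecule of endothelial junctions (1609 and 2200 UMIs per cell), CD102 (704 and 1164), CD105, a coreceptor for TGF-beta (545 and 626), and ESAM (212 and 295). CD140a, a receptor for platelet-derived growth factor, was highest in fibroblasts at 20.3 and 26.0. The leukocyte antigen CD45 averaged 5.24 and 11.6 in endothelial cells and 6.38 and 9.24 in fibroblasts, and 79.1 in isotype macrophages. Both classes were therefore low in the antigen named by the gate in the sample titles.

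**Figure D1:**
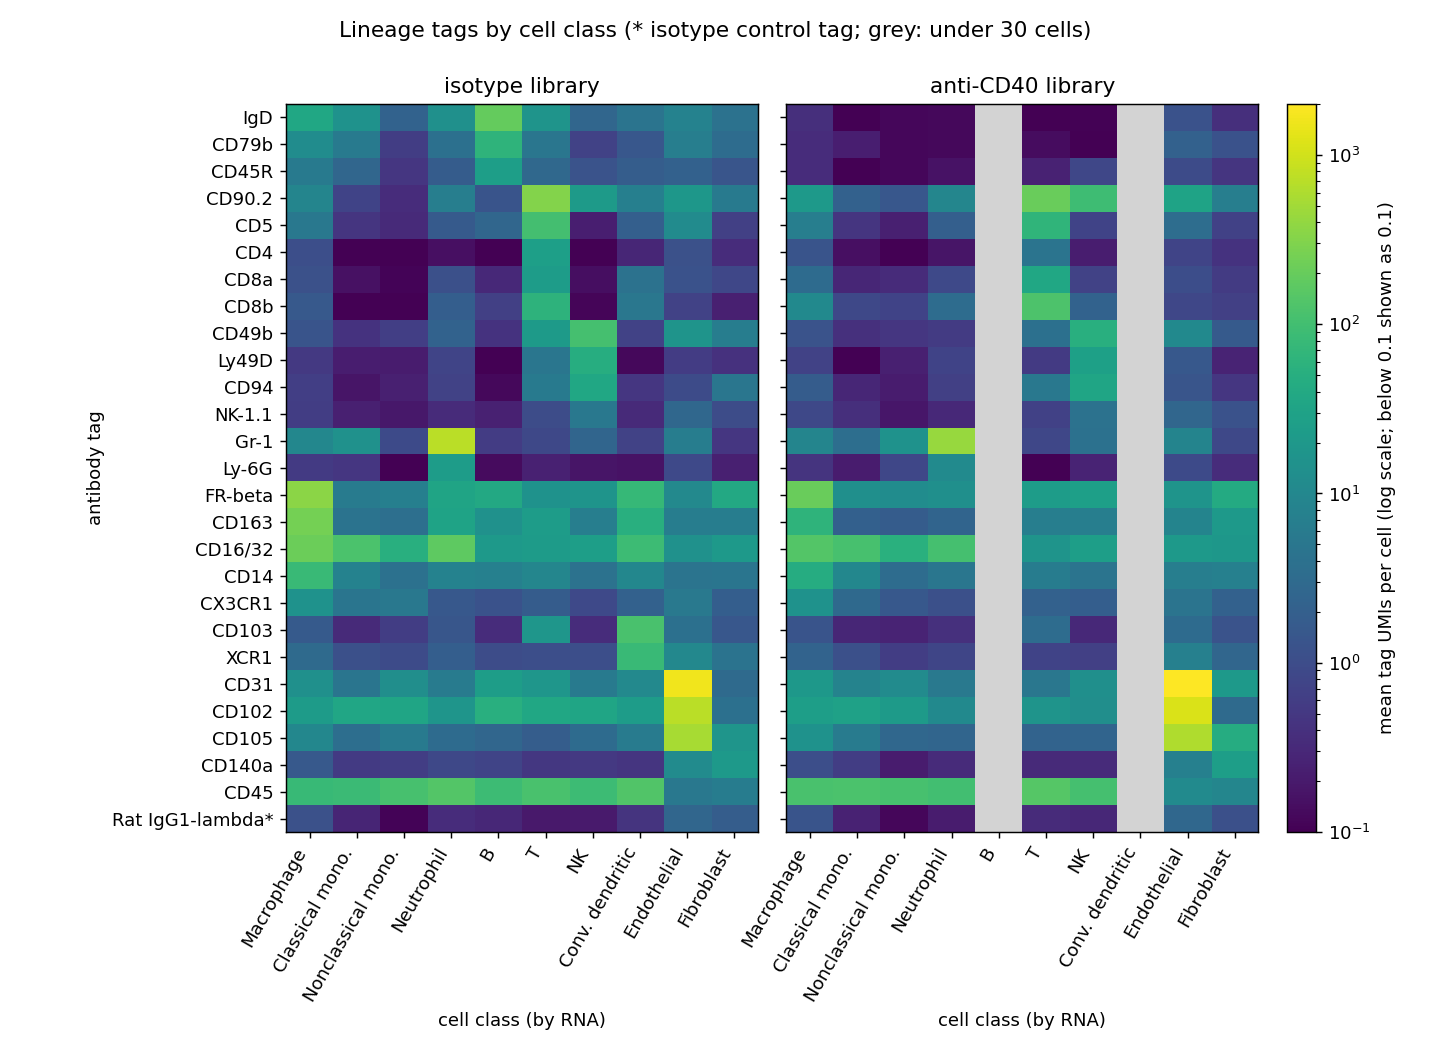
Mean tag UMIs per cell on a log colour scale for 26 lineage tags and 1 control tag (rows) in the cell classes (columns), in the isotype library at left and the anti-CD40 library at right, with grey for classes under 30 cells. The brightest cell of a row is its own class for most tags, such as CD163 in macrophages at 254 UMIs, and the B cell rows are dark in every anti-CD40 class. The rows were chosen, and of the listed lineage tags not highest in their own class only CX3CR1 is drawn.

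Not every lineage tag was highest in its own class. The heat map draws a chosen part of the lineage tags, and of those that failed it draws only CX3CR1. Of the 13 isotype tags not highest in their own class, 11 were highest in endothelial cells. Ly-6C, a marker of classical monocytes that endothelium also carries, averaged 75.0 in endothelial cells and 27.6 in classical monocytes. The receptors CCR2, MERTK, CD169, CD68, CD204, NKG2D, Ly49G, Ly49H, CLEC9A (CD370) and CD135 gave the same order. CX3CR1, the fractalkine receptor of nonclassical monocytes, was instead highest in macrophages, at 15.8 against 5.24, and Ly-49A in T cells, at 7.58 against 5.19 in NK cells. CCR2, the receptor that draws monocytes to tissue, reached a mean of 408 in isotype endothelial cells, but 96.1% of those UMIs were in 1 cell.

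Across the classes, tag and gene were positively related in most pairs, with rank correlations (rho) of at least 0.5 in about as many pairs as not. For each tag that passed the controls in a class and whose gene had at least 30 UMIs, Spearman's rho was taken between mean tag UMIs per cell and the gene's CPM (UMIs scaled to a common total per class). These are descriptions over 10 isotype or 8 anti-CD40 classes, which differ in depth. In the isotype library 137 pairs were eligible, with a median rho of 0.48; rho was at least 0.5 in 67 and at or below 0 in 20. In the anti-CD40 library 135 were eligible, with a median of 0.44, 63 at or above 0.5 and 35 at or below 0. Tag and gene peaked in the same class for 68 and 62 pairs. Endothelial cells held the highest tag level in 67 and 81 pairs, but the highest gene level in only 20 and 25.

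The 10 closest pairs in the isotype library included 3 integrin chains and both chains of CD8. CD102 and its gene Icam2 had a rho of 0.96 (0.69 in the anti-CD40 library), and CD26, a peptidase of dendritic and T cells, 0.94 with Dpp4 (0.29, without the dendritic class). CD8b and CD8a had 0.93 each (0.75 and 0.83). The integrin chains CD11a, CD11b and CD11c, which leukocytes use to adhere, had 0.92, 0.90 and 0.89, and kept to 0.95, 0.98 and 0.93 in the anti-CD40 library. CD44, a receptor for hyaluronan, had 0.90 in both. CD5 had 0.90 (0.79), and CD304, a coreceptor for semaphorins and VEGF, 0.85 (0.79).

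The 10 pairs furthest apart were 6 chemokine receptors, 2 NK receptors, CD69 and galectin-3, and all 10 tags were highest in endothelial cells. The inhibitory receptor Ly49G had a rho of −0.39 with Klra7 and the activating receptor Ly49H −0.37 with Klra8 (−0.55 and −0.63 in the anti-CD40 library). CXCR4, which holds leukocytes in marrow, had −0.36 (−0.48), and CCR2 −0.26 (−0.48). CXCR5, CXCR3, CCR6 and CCR7, which steer lymphocytes to follicles, inflamed tissue and lymph nodes, had −0.32, −0.23, −0.14 and −0.14. The early activation antigen CD69 had −0.35 (0.07) and galectin-3 (Mac-2), a lectin found mostly inside the cell, −0.30 (−0.26). Antibody quality, receptor turnover and the endothelial background were not tested as parts of these values.

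Within macrophages, an abundant transcript almost always came with a tag above the controls. Of the pairs whose gene reached 100 CPM, 31 of 32 isotype and 29 of 31 anti-CD40 pairs passed. Over all surface tags 69.3% and 64.6% passed in macrophages. Counting those that failed, 6 isotype and 5 anti-CD40 pairs were under 2-fold the highest control. CD45 and F4_80 each entered with more than 1 tag. The exception in both was CD115, the receptor for macrophage colony-stimulating factor, whose gene Csf1r stood at 1083 and 467 CPM while its tag averaged 1.12 and 0.875 UMIs per cell, below the highest control. Galectin-3 averaged 1.27 and 0.957 although Lgals3 stood at 347 and 1045 CPM, and CD68, a lysosomal membrane protein, 1.26 and 1.76 with Cd68 at 403 and 366 CPM. These tags thus carried almost no signal where their transcripts were plentiful.

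Single macrophages gave the same picture. Where the own gene was found in at least 30 cells and missing from at least 30, the median tag count was higher in cells with the gene than without in 72 of 86 isotype and 96 of 114 anti-CD40 pairs, and lower in 0 of either. In the isotype library the median CD163 tag count was 258 in the 357 cells with a Cd163 UMI and 9 in the 418 cells without. Folate receptor beta had 511.5 against 24, and Tim-4 45 against 2. In the anti-CD40 library the medians were 148.5 against 3 for CD163, 362 against 13 for folate receptor beta, 59.5 against 2 for Tim-4, and 25 against 3 for CD11c. Cells with more gene UMIs can also hold more tags. With each cell's gene counts thinned to 1000 UMIs, the tag median was higher with the gene in 26 of 45 and 44 of 68 pairs and lower in 4 and 7, with 81 and 108 shallower cells left out. As a share of the cell's own tag UMIs, the tag was higher with the gene in 72 of 86 pairs and lower in 6, and in 98 of 114 and 5.

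Sorting by tag split the T cells along the known line between helper and cytotoxic cells. At 10 or more UMIs, 12 of 40 isotype T cells carried the CD4 tag alone (30.0%, exact 95% interval 16.6 to 46.5), 15 the CD8b tag alone (37.5%, 22.7 to 54.2) and 0 both. In the anti-CD40 library 12 of 164 carried CD4 alone (7.32%, 3.84 to 12.4), 129 CD8b alone (78.7%, 71.6 to 84.7) and 3 both. Neither tag reached 10 UMIs in 13 isotype and 20 anti-CD40 T cells. The intervals cover counting error within each library only, and do not measure a difference between the treatments. The transcripts followed: Cd8b1 was found in 15 of 15 and 113 of 129 cells with the CD8b tag, and in 1 of 12 and 0 of 12 with the CD4 tag. Cd4 was detected in 9 and 6 of the 12 CD4-tagged cells in each library and in 0 and 1 of the CD8b-tagged ones.

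NK cells express Ly49 receptors in a patchwork, each cell using some of the family, and 2 of these tags tracked their genes cell by cell. Ly49D reached 10 UMIs in 98.5% of isotype NK cells with a UMI of its gene Klra4 and in 11.8% without, with medians of 84 and 0. In the anti-CD40 library these were 93.8% and 1.77%, with medians of 66.5 and 0. Ly-49A reached 10 UMIs in 100% of cells with its gene Klra1 in both libraries (8 and 11 cells), with medians of 56 and 74 against 0 and 0 without. KLRG1, an inhibitory receptor of mature NK and effector T cells, did so in 74.1% with Klrg1 against 22.9% without, and in 93.4% against 29.1%. Other tags of the same family carried nothing: Ly49H reached 10 UMIs in 0 of 141 and 0 of 161 cells, which allows a share of up to 2.13% and 1.86%, although Klra8 was detected in 52.5% and 26.7% of them. Ly49G behaved alike, with its gene Klra7 found in 32.6% and 34.2%. The Ly49 genes are close relatives, so UMIs of one may be assigned to another.

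**Figure D2:**
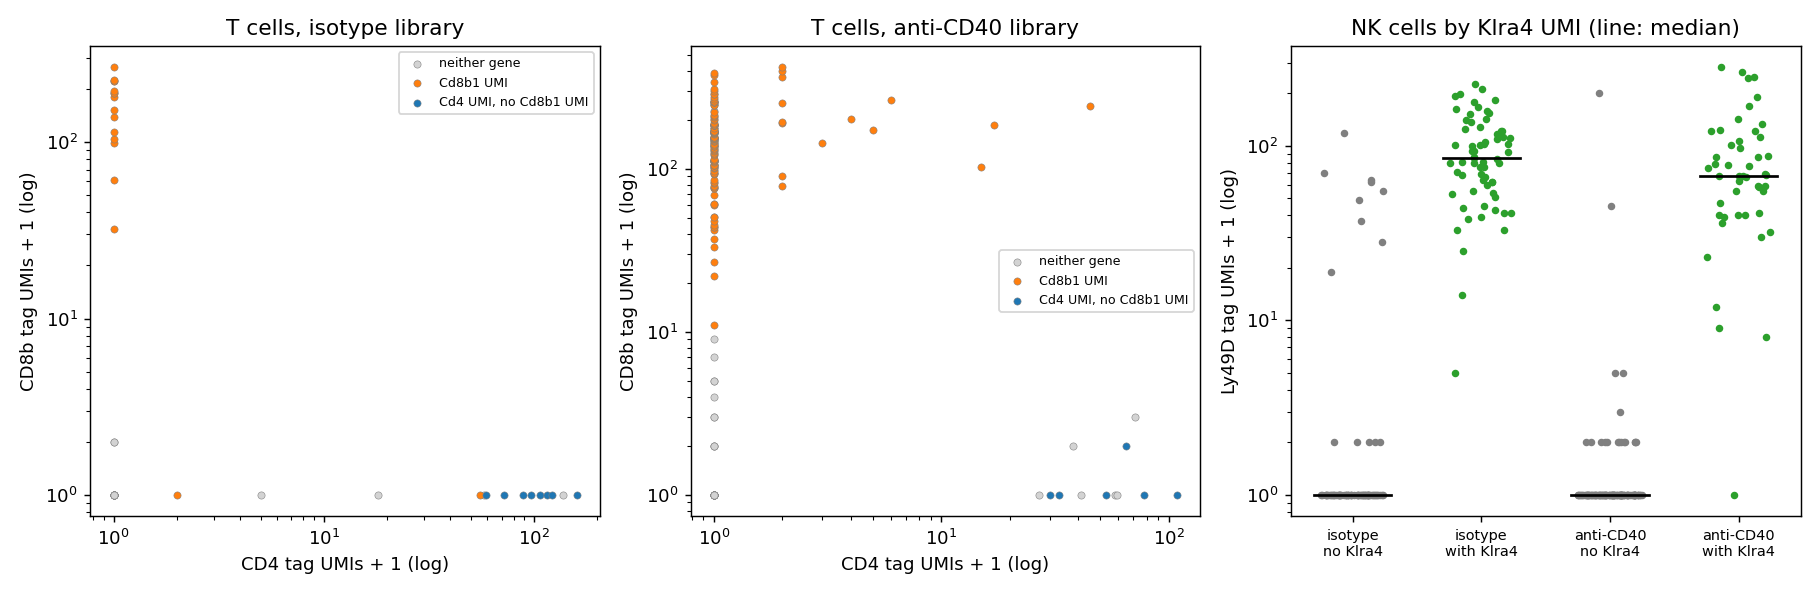
Left and middle, CD4 tag against CD8b tag UMIs plus 1 (log axes) for each T cell of the isotype and the anti-CD40 library, coloured by the UMIs of Cd4 and Cd8b1. Right, Ly49D tag UMIs plus 1 (log axis) of each NK cell by library and by detection of Klra4, with a line at the median, which is 84 and 66.5 UMIs with Klra4 and 0 without.

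The plot of single T and NK cells shows the arms of the CD4 and CD8b tags almost empty between them, and the Ly49D tag at 10 or more UMIs in 11.8% of isotype and 1.77% of anti-CD40 NK cells without Klra4, against 98.5% and 93.8% with it. The coexpression of CD4 and CD8b was limited to 3 cells in the anti-CD40 library.

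Some antigens had more than 1 entry, and the entries disagreed. F4_80, the adhesion receptor that classically marks mouse macrophages, is listed as F4_80 and as F4_80-b. The entry F4_80 averaged 2.22 and 1.75 UMIs per macrophage. The entry F4_80-b averaged 785 and 1054 there, but also 318 in isotype B cells and 613 in conventional dendritic cells, where its gene Adgre1 stood at only 9.44 and 23.9 CPM. B cells, dendritic cells and activated macrophages are known for MHC class II, and across the 10 isotype classes F4_80-b had a rho of 0.88 with H2-Ab1, a chain of that complex, against 0.59 with Adgre1. Across the 8 anti-CD40 classes these were 0.60 and 0.19. Across the 775 isotype macrophages the rho of F4_80-b was 0.75 with H2-Ab1 and −0.04 with Adgre1, and across the 2136 anti-CD40 macrophages 0.24 and 0.03. The feature lists name F4_80-b as an F4/80 antibody, and whether its barcode is correctly named cannot be settled from the files.

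**Figure D3:**
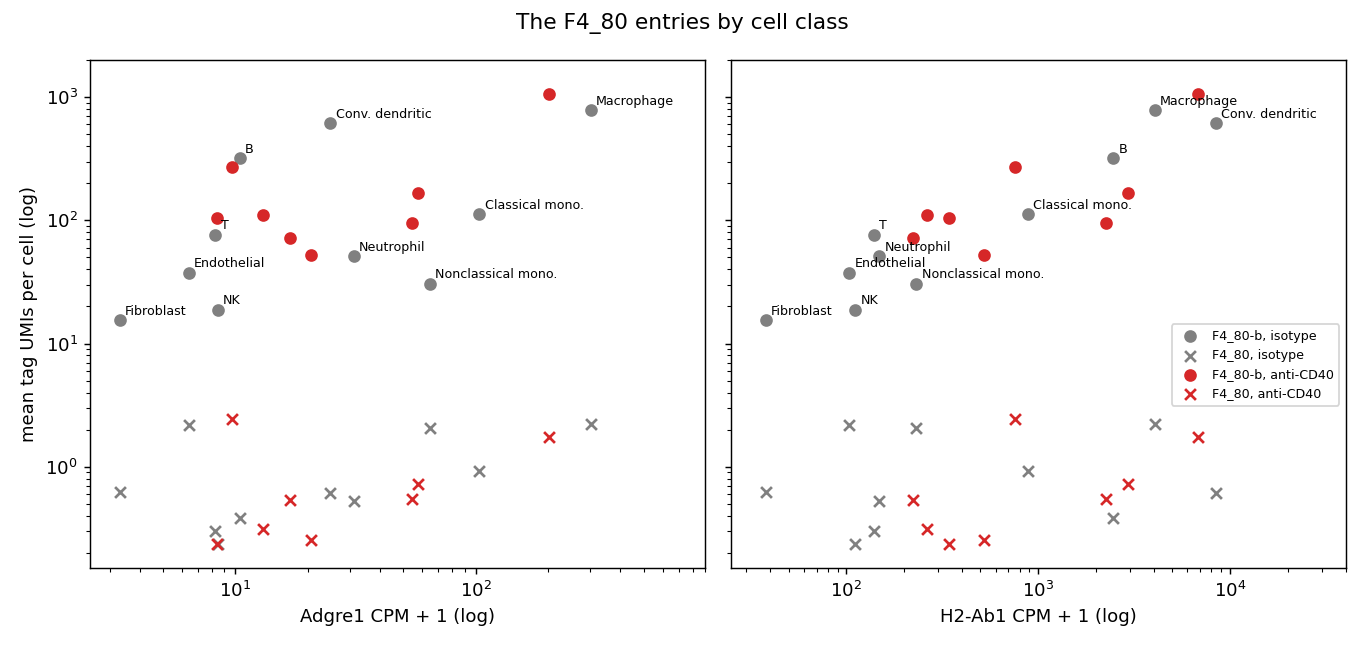
Mean tag UMIs per cell (log axis) of the entries F4_80 (crosses) and F4_80-b (circles) in each cell class, against the CPM plus 1 (log axes) of Adgre1 at left and H2-Ab1 at right, with isotype classes in grey and anti-CD40 classes in red. The circles follow H2-Ab1 more closely than Adgre1 (rho 0.88 and 0.59 over the 10 isotype classes), and no cross exceeds 2.43 UMIs per cell.

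As the plot of the F4_80 entries shows, F4_80-b stood high in 3 isotype classes, of which only macrophages had an Adgre1 level over 200 CPM. For the gamma-delta T cell receptor, the entry TCRgamma_delta averaged 14.7 and 4.64 UMIs in T cells with a UMI of a beta chain gene (Trbc1 or Trbc2) and none of Trdc, the delta chain gene (35 and 140 cells). In the same cells the entry TCRgamma_delta-b averaged 0.2 and 0.357, and CD3 8.34 and 2.81. Cells of that RNA pattern are not gamma-delta T cells by their transcripts, so the values of these 4 entries are not read as levels of F4/80 or of the gamma-delta receptor here. The counts in this account still include the F4_80 entries. F4_80 is among the lineage tags, highest in isotype macrophages at 2.22 against 2.20 in endothelial cells. Both F4_80 and F4_80-b are among the pairs of tag and own gene.

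The comparison of the libraries asked how the surface of heart immune cells differed after CD40 activation, and macrophages carry most of the cells. Of 142 tags above the controls in at least 1 library, 38 (26.8%) were over 1.5-fold higher in anti-CD40 macrophages and 32 (22.5%) over 1.5-fold lower. Among all 11449 genes with at least 30 UMIs, 1393 (12.2%) were over 1.5-fold higher and 2775 (24.2%) lower, with a median log2 ratio of −0.19. Per total tag UMIs the tags split 32 higher to 44 lower, and scaled to the controls 48 to 21. The median over the tags was −0.01, and over the 124 own genes tested −0.14. The 9 control tags together averaged 3.12 UMIs per isotype macrophage and 2.76 per anti-CD40 macrophage, a ratio of 0.885 (counting interval 0.844 to 0.928), and ranged singly from 0.55 to 1.1. All intervals below are exact 95% intervals for counting error, and tag ratios compare means per cell. Gene ratios compare CPM, which is an unlike scale. Gene UMIs averaged 7106 per isotype and 11385 per anti-CD40 macrophage, so counted per cell every gene ratio in macrophages would be higher.

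The highest ratio belonged to CD274, the ligand of the inhibitory receptor PD-1, at 1.98 UMIs per isotype macrophage and 38.2 per anti-CD40 macrophage (medians 1 and 26), or 19.3-fold (18.4 to 20.3). Its gene Cd274 stood at 4.36 and 74.8 CPM, 17.2-fold higher. Ly-6A/E, a small anchored protein of lymphocytes, endothelium and stem cells, averaged 11.4 and 145 (medians 6 and 90), 12.8-fold (12.5 to 13.05). Its gene Ly6a stood at 11.1 and 1588 CPM, 143-fold higher (112 to 187), so here the transcript differed far more than the tag. CD54, the ligand of leukocyte integrins, averaged 26.6 and 246 (medians 19 and 165), 9.25-fold, while Icam1 at 116 and 176 CPM was 1.52-fold higher, so here the order was the reverse.

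The remaining tags among the 15 highest were of several kinds. CD11c, an integrin chain of dendritic cells and some macrophages, averaged 2.40 and 20.1 (8.37-fold), with Itgax 3.40-fold higher. CD11a, its relative that binds CD54, averaged 11.8 and 51.9 (4.41-fold), and CD106, the endothelial and macrophage adhesion molecule VCAM-1, 0.663 and 3.18 (4.798-fold, Vcam1 10.8-fold). CD317, which tethers budding viruses to the cell, averaged 17.2 and 82.8 (medians 10 and 53), 4.83-fold, with Bst2 2.70-fold higher. CD43, a sialic acid-rich protein of leukocytes, averaged 23.5 and 76.8 (3.26-fold, Spn 3.52-fold), and CD226, an adhesion receptor of lymphocytes and monocytes, 2.72 and 14.5 (5.35-fold, Cd226 5.98-fold).

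CD40 itself averaged 8.31 UMIs per isotype macrophage and 32.03 per anti-CD40 macrophage, with medians of 4 and 21. That is 3.85-fold (3.76 to 3.95), and the gene Cd40 at 19.4 and 92.2 CPM was 4.75-fold higher (3.91 to 5.82). Whether the injected antibody covers the site of the CD40 tag was not tested. CD270 (HVEM), a receptor that binds BTLA, averaged 37.6 and 131 (medians 32 and 108), 3.50-fold, although its gene Tnfrsf14 had only 7 and 103 UMIs in all macrophages. CD69 averaged 2.04 and 7.85 (3.85-fold, Cd69 1.46-fold), and the costimulatory ligand CD80 2.08 and 6.89 (3.31-fold) with Cd80 at 0.674-fold.

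CD8b and KLRG1, proteins of lymphocytes, were also among the 15 highest, at 1.56 and 11.2 (7.16-fold) and 0.708 and 2.88 UMIs (4.06-fold), with medians of 0 and 1 and of 0 and 0. The 10 marker genes of T cells summed to 35.8 CPM in isotype and 48.4 CPM in anti-CD40 macrophages, and the 8 of NK cells to 31.8 and 54.5, with every gene of both lists detected in both libraries. The part of lymphocyte RNA or carried-over tags in these values was not tested beyond the following count. Macrophages without a UMI of any B cell, T cell, NK cell or neutrophil marker numbered 131 of 775 and 117 of 2136. In them CD8b averaged 0.0687 and 3.74, 54.5-fold higher (28.4 to 120) with medians of 0 and 0. KLRG1 averaged 0.557 and 1.01 (1.81-fold). This rule keeps unequal shares of the 2 libraries and can favour cells with few UMIs. The CD45 tag averaged 50.1 and 79.6 in these cells, against 79.1 and 118.5 in all macrophages. In the same cells CD274 was 20.5-fold, Ly-6A/E 9.76-fold, CD54 7.71-fold and CD40 5.37-fold higher, and CD226 3.11-fold.

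A list of 18 tags described the CD40 and costimulation axis. It was named whatever the values, but chosen with earlier results of these data known. Of the 15 above the controls, 8 were over 1.5-fold higher, 2 lower and 5 neither, with a median log2 ratio of 0.89 against −0.01 over all tags. The list includes Ly-6A/E and CD54, which have the highest ratios after CD274, so its median is not that of an independent set. Higher were CD40, CD80, CD274, CD270, CD69, Ly-6A/E, CD54 and PD-1 (CD279), the last at only 0.93 and 1.72 UMIs. Lower were BTLA (CD272) and CD38, an enzyme that consumes NAD, the latter at 77.2 and 51.0 (medians 31 and 26) with its gene at 0.989-fold. CD38 was within 1.5-fold when scaled to the controls (log2 ratio −0.42), by medians (−0.25), with stricter cells (−0.50) and in macrophages without other lineages' markers (−0.22). CD86, the partner ligand of CD80, averaged 57.5 and 72.3 (1.26-fold) with Cd86 at 0.721-fold. CD83, a marker of mature dendritic cells, averaged 1.68 and 1.40 while Cd83 stood at 199 and 65.2 CPM. CD137 (1.28 and 0.879), CD134 (2.79 and 1.93) and CTLA-4 (CD152, 1.60 and 1.56), receptors of activated T cells, lay within 1.5-fold. CD273, CD252 and CD25 did not pass the controls in either library.

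Several macrophage receptors were lower and others were not. CD163 averaged 254 and 62.0 (medians 54 and 4), 4.10-fold lower, and Cd163 at 317 and 41.4 CPM was 7.67-fold lower. Folate receptor beta averaged 360 and 206 (medians 98 and 29), 1.75-fold lower, with Folr2 at 432 and 149 CPM, 2.90-fold lower. In the macrophages without other lineages' markers the tag averaged 182 and 157, 1.16-fold lower and within 1.5-fold. CD14, the coreceptor for lipopolysaccharide, averaged 80.8 and 46.3, 1.74-fold lower, with Cd14 3.57-fold lower. Tim-4 at 28.2 and 36.1 and CX3CR1 at 15.8 and 15.6 did not pass 1.5-fold, though Tim-4 was 1.56-fold higher in the macrophages without other lineages' markers, and CD169, a sialic acid receptor of macrophages, was 2.00-fold higher with its gene 1.98-fold higher.

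Of the 10 lowest ratios, 6 were B cell proteins. IgD averaged 36.8 and 0.376 (medians 3 and 0), 97.8-fold lower, and CD79b 12.2 and 0.356, 34.1-fold lower. CD45R, the inhibitory receptor BTLA and the lectin CD22 were 17.0-, 7.82- and 4.28-fold lower. B cells were 15.5% of the kept isotype cells and 0.304% of the kept anti-CD40 cells, and mixed cells that passed the B cell list 16.4% and 0.584%. The 9 B cell marker genes summed to 278 CPM in isotype macrophages and 23.2 CPM in anti-CD40 macrophages, with all 9 detected in both. In the macrophages without other lineages' markers IgD averaged 7.25 and 0.239, 30.3-fold lower. There CD79b was 9.82-fold, CD45R 7.94-fold and BTLA 3.78-fold lower, while CD22 at 0.313 and 0.333 was no longer lower. How the B cell tags came to be on isotype macrophages was not tested.

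Of the others, CD55, which protects cells from complement, averaged 36.2 and 2.18 (medians 3 and 1), 16.6-fold lower, with Cd55 22.3-fold lower. In the isotype library both the CD55 tag and Cd55 were highest in B cells, and in the macrophages without other lineages' markers the tag averaged 5.81 and 0.940, 6.18-fold lower. CD24, a small anchored glycoprotein of B cells and dendritic cells, averaged 23.0 and 4.83 (4.75-fold lower). The stem cell factor receptor CD117 averaged 27.9 and 1.11, but 98.1% of its isotype UMIs were in 1 cell and both medians were 0. Without the highest cell of each library its log2 ratio turned from −4.65 to 0.81, so its low ratio was that of 1 droplet.

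**Figure D4:**
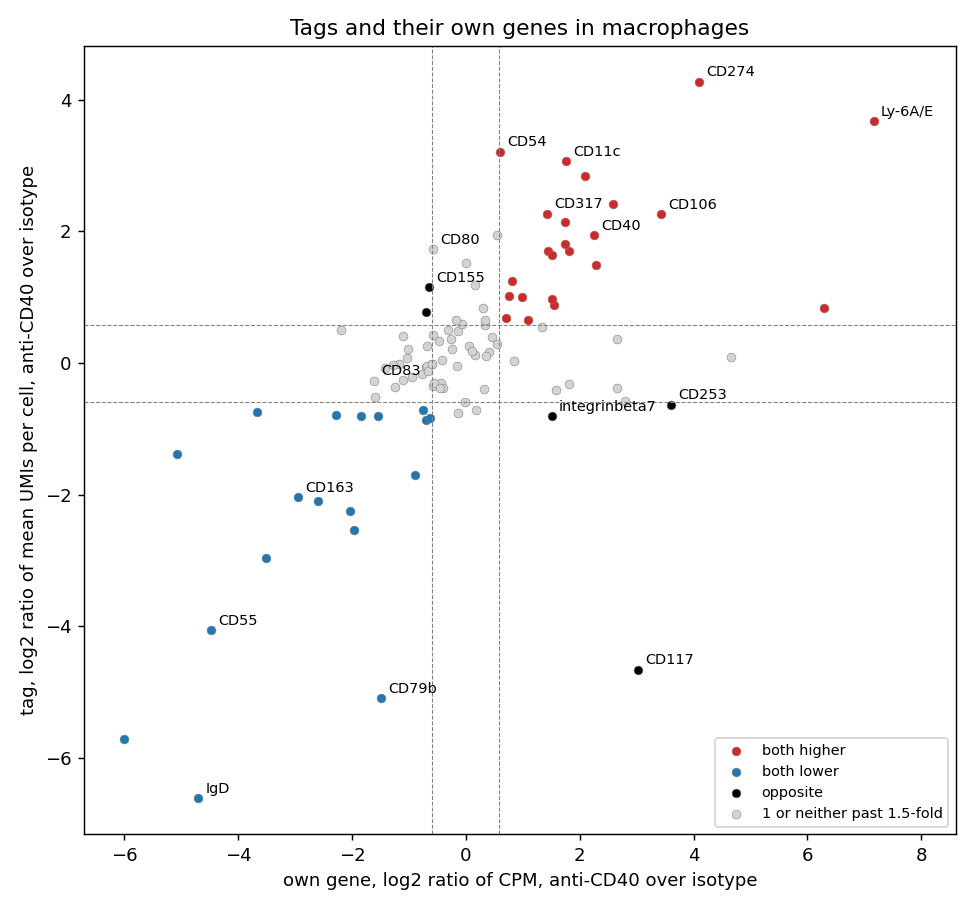
Log2 ratio of anti-CD40 over isotype in macrophages for each of the 106 pairs, with the own gene's CPM on the x axis and mean tag UMIs per cell on the y axis, dashed lines at 1.5-fold and colours for pairs past it. There are 23 points past both lines at upper right, 18 at lower left and 5 in the opposite corners.

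Tag and gene could be compared in 106 pairs, drawn in the plot of tag against gene ratios. Both were over 1.5-fold higher in 23 pairs and both lower in 18, opposite in 5, and neither passed in 22. The tag alone passed in 8 pairs higher and 3 lower, and the gene alone in 8 higher and 19 lower. Pairs with only the gene lower outnumbered pairs with only the tag lower, 19 to 3. These counts set tags per cell against genes as CPM, and depend on those unlike scales. Among the 8 with a higher tag only were CD44, CD49d, CD29, CD45.2, CD69 and CD80, and among the genes lower without their tag were Cd83, Cx3cr1 and Pecam1 (CD31).

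The 5 opposite pairs were small in tag level or count. The integrin chain beta 7, for homing to gut, averaged 7.23 and 4.12 UMIs with its gene 2.85-fold higher. CD36, a fatty acid and lipoprotein receptor, averaged 2.27 and 3.87 with Cd36 at 0.618-fold, and CD155, the poliovirus receptor that binds CD226, 3.55 and 7.89 with Pvr at 0.640-fold. Both gene ratios are of CPM and would be higher per cell. The death ligand TRAIL (CD253) averaged 2.08 and 1.35 with its gene 12.2-fold higher, but without the highest cell of each library the tag averaged 1.64 and 1.33 and was within 1.5-fold. CD117, the fifth, rested on the 1 cell described above. In the macrophages without other lineages' markers, the beta 7 chain, CD36 and CD253 were within 1.5-fold as tags, at ratios of 0.741, 1.46 and 0.773.

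Tags that differed the same way in every class were few. In the 8 classes with at least 30 cells in both libraries, 4 tags were over 1.5-fold higher in all 8. They were CD54 (2.10- to 9.25-fold), Ly-6A/E (1.62- to 14.8-fold), CD274 (2.68- to 23.0-fold) and CD317 (2.37- to 11.9-fold). Per 10000 tag UMIs of the class only CD274 and CD317 kept all 8, and scaled to the controls all 4 did, joined by CD106. CD79b, IgD and BTLA were over 1.5-fold lower in all 8, and 58 tags passed 1.5-fold in both directions in different classes. CD40 was over 1.5-fold higher in 4 of 8 classes, with ratios from 0.873 to 4.30, and CD270 in 5 of 8, from 0.826 to 3.55.

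**Figure D5:**
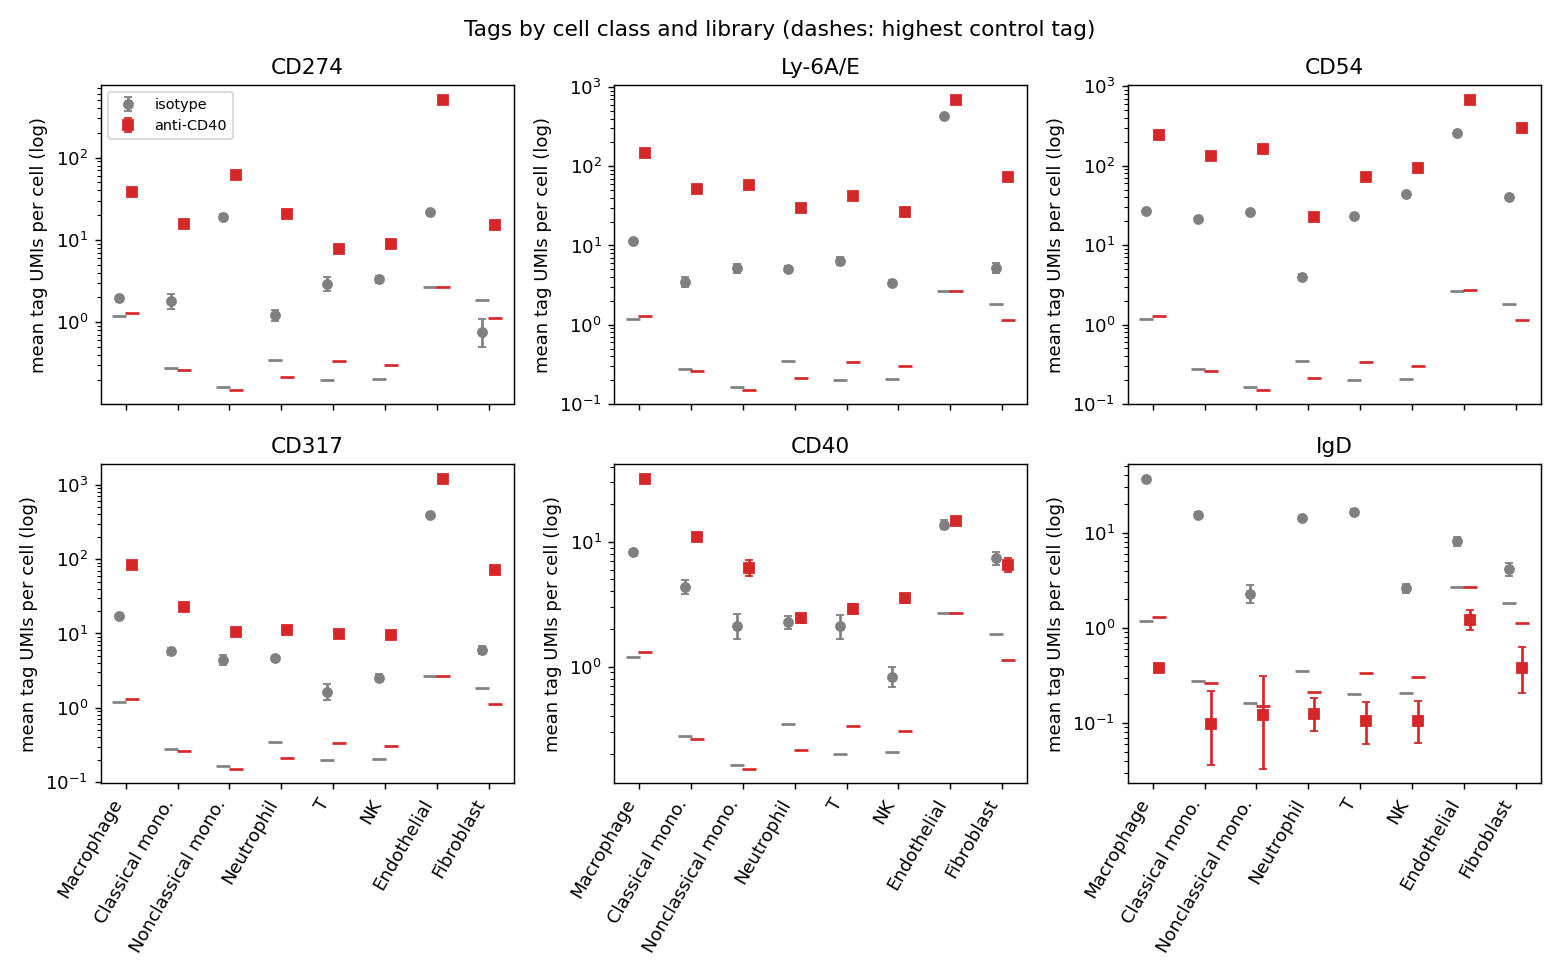
Mean UMIs per cell (log axes) of the tags CD274, Ly-6A/E, CD54, CD317, CD40 and IgD in 8 cell classes of the isotype (grey circles) and anti-CD40 (red squares) libraries, with exact Poisson 95% intervals and dashes at the highest control tag. CD274 is higher in every anti-CD40 class, from 21.9 to 504 UMIs in endothelial cells, and IgD lies below the dashes in every anti-CD40 class.

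The plot of 6 tags by class gives the levels behind these ratios. Endothelial cells had the highest level of CD274, at 21.9 and 504 UMIs per cell (medians 10 and 316), 23.0-fold, with Cd274 at 32.4 and 708 CPM (6 and 244 UMIs). Fibroblasts averaged 0.757 and 15.3 (medians 0 and 11), 20.2-fold, and neutrophils 1.22 and 20.5 (medians 1 and 15), 16.8-fold with Cd274 11.7-fold higher. The endothelial and fibroblast classes hold at most 58 cells a library. Fibroblasts further showed Ly-6A/E at 5.27 and 72.2 (13.7-fold) and CD317 at 5.97 and 71.0 (11.9-fold).

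The ratios of the other classes were read with their summed controls, whose ratio between the libraries ran from 0.585 in neutrophils to 1.34 in classical monocytes. In neutrophils 14 of 165 tags (8.48%) were over 1.5-fold higher and 82 (49.7%) lower. Per total tag UMIs the split was 33 to 28 and scaled to the controls 49 to 19, so the excess of lower tags there rests on counting per cell. Besides CD274, the highest were Ly-6A/E (5.79-fold) and CD54 (5.56-fold). Gr-1 averaged 706 and 439, CD11b 721 and 419 and Ly-6G 24.1 and 11.5, while the gene Ly6g stood at 30.0 and 370 CPM (12 and 227 UMIs), 12.3-fold higher. Scaled to the controls, the log2 ratio of Gr-1 was 0.09 and that of CD11b −0.01, so on that scale neither passed 1.5-fold, and that of Ly-6G was −0.29 beside its higher transcript.

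Of 165 tags in classical monocytes, 50 (30.3%) were higher and 33 (20.0%) lower, but 31 and 55 when scaled to the controls. Of 167 in nonclassical monocytes, 44 (26.3%) were higher and 48 (28.7%) lower, with 37 and 62 per total tag UMIs and 60 and 35 scaled to the controls. In classical monocytes Ly-6A/E averaged 3.50 and 52.0 (14.8-fold), and CD157 and CD8b had high ratios at levels under 1 UMI. Among the lowest were IgD, at 15.5 and 0.098, and CD55, at 17.2 and 0.574. In nonclassical monocytes CD1d, which presents lipids to NKT cells, averaged 0.973 and 16.3 (medians 0 and 11), 16.7-fold. The 17.0-fold ratio of Gr-1 there had 94.0% of its anti-CD40 UMIs in 1 cell, CD8b stayed under 1 UMI, and IgD and BTLA were among the lowest.

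In T cells 37 of 168 tags (22.0%) were higher and 63 (37.5%) lower, in classes whose CD4 and CD8b shares also differed. KLRG1 averaged 1.60 and 16.3 (medians 0 and 5), 10.2-fold, with Klrg1 6.06-fold higher. PD-1, an inhibitory receptor of activated T cells, averaged 0.90 and 7.25 (medians 0.5 and 5), 8.06-fold, with Pdcd1 at 1 and 114 UMIs. CD11c averaged 0.225 and 4.07. In the same class the 8 NK cell marker genes summed to 1309 and 4515 CPM and the 6 macrophage markers to 290.1 and 635 CPM, all detected in both libraries, and their part in these ratios was not tested. IgD and CD79b were again among the lowest ratios.

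In NK cells 57 of 156 tags (36.5%) were higher and 30 (19.2%) lower, and 41 and 59 per total tag UMIs. KLRG1 averaged 13.4 and 49.5 (3.70-fold), and the share of cells with 10 or more UMIs was 44.0% and 71.4%, with Klrg1 2.02-fold higher. CD90.2 averaged 22.2 and 91.8 (4.13-fold), with Thy1 3.40-fold higher. CD49b averaged 110 and 52.3 with medians of 110 and 7, and reached 10 UMIs in 127 of 141 and 74 of 161 cells, with Itga2 1.85-fold lower. Most anti-CD40 NK cells thus lay below the level that marks nearly all isotype ones. CD8b, CD86 (2.54 and 21.4) and PIR-A/B (1.14 and 9.17) had the highest ratios, with medians of 0 and 0, 0 and 5, and 0 and 2. These are proteins of T cells and myeloid cells. The 6 macrophage markers summed to 251 CPM in isotype and 505 CPM in anti-CD40 NK cells, and the 10 T cell markers to 923 and 811 CPM. The part of other cells' RNA or carried-over tags in these ratios was not tested. IgD averaged 2.60 and 0.106 (medians 1 and 0), and CD79b was lower as well, while the 9 B cell markers summed to 159 and 1.6 CPM, 8 of them at 0 in the anti-CD40 library.

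In endothelial cells 33 of 151 tags (21.9%) were higher and 24 (15.9%) lower, with 20 and 67 per total tag UMIs and 42 and 14 scaled to the controls. In fibroblasts 34 of 141 (24.1%) were higher and 48 (34.0%) lower, with 19 and 83 and with 67 and 7, so in neither class does a count of higher against lower tags hold across scalings. After CD274, the highest in endothelial cells were F4_80-b (37.6 and 269) and CD11b (2.07 and 10.7), the latter with 48.2% of its anti-CD40 UMIs in 1 cell. CCR2 and the TLR4 complex were among the lowest there, and each had over 90% of its isotype UMIs in 1 cell, with medians of 6 and 10 and of 8 and 10. In fibroblasts IgD and CD94 were among the lowest, the latter with 86.4% of its isotype UMIs in 1 cell. Ratios of classes with so few cells can therefore be those of a single droplet.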

How the data were processed

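The authors deposited raw UMI counts, whole numbers without normalization, for 32285 genes and 198 antibody tags in each of 2 libraries of 4 pooled hearts. The labels' protocols name 10x Genomics 5′ chemistry, while the tag names carry the TotalSeqA product line. Per the file headers, Cell Ranger 6.0.1 wrote the matrices, whereas version 3 of Cell Ranger, Seurat 3 and the builds mm10 and GRCh38, with no roles, stand in the submitters' processing notes. How the barcodes were selected is not given in the sources used here.

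Kept barcodes had 200 or more genes and less than 10% mitochondrial UMIs. A cell joined a class when it passed only that class's list of marker genes (at least 3 different markers, and 10 marker UMIs per 10000, or 20 for macrophages, neutrophils and fibroblasts). T and NK cells were divided by at least 2 of Cd3d, Cd3g and Trac. Cells passing several lists were set aside as mixed, and no doublet caller was run. This scoring was set after marker RNA had been seen and before tag levels by class had been computed; the members, marker lists and rules were chosen with earlier results of these data known.

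Tag levels are mean UMIs per cell, gene levels CPM of the summed class. Ratios are anti-CD40 over isotype with exact conditional binomial 95% intervals, and shares carry exact Clopper-Pearson intervals (scipy 1.17.1, numpy 2.4.6, pandas 2.3.3, Python 3.11.15, matplotlib 3.10.9). Intervals and limits cover counting error only. Past 1.5-fold a tag or gene is called higher or lower. A ratio needs a tag above the controls, or a gene with 30 UMIs, in 1 library. The ratio code was tested on simulated counts, and the gate code was not.

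Named are lineage tags and CD40 and costimulation tags whatever their value, the 15 highest and 10 lowest ratios in macrophages, the 3 highest and 3 lowest in each other class, the 10 highest and 10 lowest rho, and every opposite pair; a few items that these rules select are not reported here. CD16/32, CD26, CD94 shares and the entries of F4_80 and the gamma-delta receptor in single cells were added after their values were seen. Alternatives covered scaling, medians, stricter cells and gates, extreme cells, fold threshold and gene minimum. The promoter pattern GAAANNGAA was shortened by 1 base after a first search with the longer form.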

Additional observations from a re-analysis of the deposited data

Results flagged for a closer look

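Some tags passed 1.5-fold in opposite directions in macrophages and in another class. None of these differences between classes was tested, and each rests on 1 library per group.

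CD38, lower in anti-CD40 macrophages except under 4 alternatives that bring it within 1.5-fold, was higher in nonclassical monocytes (2.17-fold), T cells (1.67-fold), NK cells (3.05-fold) and fibroblasts (2.94-fold). CD117, whose macrophage ratio was that of 1 isotype cell, was higher in classical monocytes (3.26-fold) and NK cells (1.89-fold). CD24, lower in macrophages, was higher in endothelial cells (1.56-fold). On the other side, tags higher in anti-CD40 macrophages had ratios below 1 elsewhere: CD69 0.567 in fibroblasts, the integrin chain CD11a 0.625 in neutrophils, and CD226 0.646 in endothelial cells. The control tags had ratios of 0.585 in neutrophils, 0.636 in fibroblasts and 0.872 in endothelial cells.

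The tag for H-2Kb loaded with SIINFEKL, an ovalbumin peptide that these mice do not make, averaged 22.6 UMIs per isotype endothelial cell and 46.0 per anti-CD40 endothelial cell, above every control tag.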

How the results depend on the processing

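No paired analysis was possible because each group is 1 library, and for the same reason no replicate could be left out. Of the counts that answer a comparison, 85 values under an alternative stayed within 1.5 times the main count and 27 did not. By median UMIs per cell, tags above the controls in macrophages numbered 75 (main 131) and 76 (main 122), and tags higher and lower in anti-CD40 macrophages 25 and 16 (main 38 and 32). Lower tags in macrophages numbered 21 when scaled to the controls, 15 at 2-fold and 21 in macrophages without other lineages' markers. Pairs at or below a rho of 0 in the isotype library were 13 of fewer classes with stricter cells (main 20). With genes thinned to 1000 UMIs, 26 and 44 pairs had a higher tag median with the gene (main 72 and 96), among fewer eligible pairs. Opposite pairs were 3 with genes scaled by the median of ratios and 1 in macrophages without other lineages' markers, where 19 pairs went the same way (main 41). Scaled to total tag UMIs, higher tags were 33 in neutrophils, 20 in endothelial cells and 19 in fibroblasts, and lower tags 28, 67 and 83, with 59 in NK cells. Scaled to the controls, higher tags were 31 in classical monocytes, 49 in neutrophils and 67 in fibroblasts, and lower tags 55, 19 and 7, with 14 in endothelial cells. In macrophages these scalings shift every tag's log2 ratio by −0.21 and 0.18, and the median of ratios shifts genes by 0.29. Of single tags, CD117 reversed to a log2 ratio of 0.23 in macrophages without other lineages' markers and 0.81 without the highest cell, and CD22 to 0.091 in the former; CD38 lost its call under 4 settings and CD273 passed under 4. The cause of these moves was not tested. With stricter cells (500 genes, 5% mitochondrial UMIs), nonclassical monocytes, T cells, endothelial cells and fibroblasts fell under 30 cells in a library and gave no value. Depth limits tags below about 1 UMI per cell and genes with few UMIs, such as Tnfrsf14, and no interval covers variation between mice.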

Other observations

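Droplets that passed 2 marker lists, set aside above, carried the tags of both classes. In the isotype library 247 droplets passed the macrophage and the B cell list. They averaged 367 IgD UMIs, against 190 in B cells, and 522 CD163 and 863 folate receptor beta UMIs, against 254 and 360 in macrophages. Their tag UMIs of all kinds averaged 9275, above the 5758 obtained by adding the means of both classes, and their gene UMIs 17103 against 11386. In the anti-CD40 library, 82 droplets with macrophage and T cell markers averaged 146 CD8b, 212 CD90.2 and 71.1 CD172a UMIs, where CD172a is the macrophage receptor for CD47. Another 147 with macrophage and neutrophil markers averaged 350 Gr-1, 490 CD11b and 394 folate receptor beta UMIs. The droplets with T cell markers averaged 5365 tag and 12142 gene UMIs, below the added class means of 6181 and 17995. Those with neutrophil markers averaged 8421 tag UMIs, above the added 6308, but 11985 gene UMIs, below the added 14222. Whether any of these mixed droplets held 2 cells was not tested.

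Barcodes left out by the limits on genes and mitochondrial share still carried surface tags. CD45 averaged 87.7 UMIs on left-out isotype barcodes and 136 on kept ones, and 92.8 and 146 in the anti-CD40 library. In the 13 anti-CD40 B cells, too few to be used, 98.9% of the IgM UMIs were in 1 cell.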
